A study of Homo sapiens with 6 samples.

Results

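The mRNAs of 10 glycolytic enzymes (HK2, GPI, PFKP, ALDOA, TPI1, GAPDH, PGK1, ENO1, PKM and LDHA) were examined in A549 cells after knockdown of PLANE, a long non-coding RNA. The enzymes were chosen by name from the steps between glucose and lactate, without the phosphoglycerate mutase PGAM1. All 10 were present among the 34957 genes of the deposited tables, with 140 of the 180253 transcripts. A549 is an established cell line of human lung adenocarcinoma. The cells were transfected for 48 h with a negative control siRNA (si-ctrl) or with either of 2 siRNAs against PLANE (si-PLANE.1 and si-PLANE.2), with 2 libraries of each group sequenced as short reads. PLANE itself was not analysed here. Every group is the same cell line under the same transfection, and the study calls the libraries of a group experimental repeats without saying whether they came from separate cultures, so the p-values below measure the spread between libraries, which may be technical. In bulk RNA, fewer cells that make an mRNA and less of that mRNA per cell cannot be told apart.

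Glycolysis breaks glucose down to pyruvate in the cytosol. An early phase spends ATP to trap and split the sugar, a late phase returns ATP and NADH, and lactate dehydrogenase then passes the electrons of NADH to pyruvate, so that NAD+ is regenerated and lactate leaves the cell. Tumour cells commonly run this pathway at a high rate also when oxygen is present, and several of its genes are textbook targets of HIF-1 and MYC. The pyruvate kinase gene PKM is a classical case of alternative splicing in cancer, because mutually exclusive exons give the M1 form of adult muscle and brain or the M2 form of proliferating cells. The series was made to ask how PLANE affects alternative splicing and proliferation, and the enzymes below were compared between each siRNA and si-ctrl as gene totals and as isoforms.

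Depth ranged from 10572151 to 20778431 expected counts per library and was highest in the si-PLANE.2 libraries. Both si-PLANE.2 libraries differed from the remaining ones in RNAs unrelated to glycolysis. Of 4 measured RNAs that lack a poly(A) tail, summed levels were 663 and 744 FPKM in si-ctrl, against 381 and 508 in si-PLANE.1 and 0.09 and 0.7 in si-PLANE.2. FPKM counts fragments relative to transcript length and to the mapped fragments of the library. Poly(A) isolation and rRNA removal are both named in the methods, with no word on which library had which, so the siRNA and the preparation of the libraries cannot be told apart for si-PLANE.2. The si-PLANE.2 libraries were also deposited apart from those of si-PLANE.1, beside the same si-ctrl values. A difference in sequencing or processing can therefore not be told apart from the siRNA either. All 9 listed A549 markers were detected in every library, with KRT8 between 2712 and 5823 FPKM. In si-PLANE.2 7 of the 9 were called higher (KRT8 by 1.23 and AKR1B10 by 1.81 on the log2 scale). Of all genes tested 64.1% were called there, 31.8% higher and 32.3% lower. KRT18, among the 7, turned from 0.69 to -6.73 with its most abundant transcript in place of the gene. EPCAM was called lower, at 2.59 and 2.70 FPKM against 18.2 and 15.4 FPKM in si-ctrl (-1.71, edgeR adjusted p = 0.000137). Of the markers of other cell types, 4 erythroid genes summed to 687 and 669 FPKM in si-ctrl and to 929 and 0 FPKM in si-PLANE.1, and were at 0 in both si-PLANE.2 libraries. HBB made up most of that signal and ALAS2 did not exceed 0.27 FPKM. Leukocyte, endothelial and muscle markers summed to at most 10.4, 0.59 and 0.44 FPKM, with PTPRC at up to 0.02, CDH5 at up to 0.22 and MYH7 at up to 0.07 FPKM. The leukocyte sum was mostly CD14, between 4.06 and 9.41 FPKM and called higher in si-PLANE.2 (0.74, edgeR adjusted p = 0.00889). The part of these markers in the results below was not tested.

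Of all gene counts the 10 enzymes together took 2.13% and 2.11% with si-ctrl, 1.79% and 1.69% with si-PLANE.1, and 2.16% and 2.26% with si-PLANE.2. Both si-PLANE.1 libraries lay below, and both si-PLANE.2 libraries above, the si-ctrl libraries. On FPKM, which corrects for transcript length, the shares were 2.17% and 2.03%, 1.87% and 1.72%, and 1.96% and 2.09%, and si-PLANE.2 then overlapped with si-ctrl. With 2 libraries per group an exact permutation test cannot go below a two-sided p of 0.33, so these shares are given as a description.

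On GRCh37 the early-phase genes lie at chr2:75061254-75120486 (HK2), chr19:34850385-34893318 (GPI), chr10:3108525-3179910 (PFKP), chr16:30075485-30081778 (ALDOA) and chr12:6976283-6980112 (TPI1), all on the plus strand. The late-phase genes lie at chr12:6643678-6647540 (GAPDH), chrX:77166236-77384792 (PGK1) and chr11:18416107-18429972 (LDHA) on the plus strand, and at chr1:8921059-8939249 (ENO1) and chr15:72491370-72524160 (PKM) on the minus strand. All 10 are annotated as protein-coding genes, and all passed the minimum of 0.5 FPKM in each comparison.

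Levels differed between the enzymes far more than between the groups. In si-ctrl, GAPDH, which oxidises glyceraldehyde phosphate and yields NADH, was the highest with 5769 ± 656 FPKM (SD, n = 2), and ranked 8 and 9 among all genes in the 2 libraries. PKM followed with 2246 ± 91.6 FPKM and LDHA, the muscle-type lactate dehydrogenase subunit, with 2160 ± 109 FPKM. The libraries of PKM and LDHA overlapped, as did those of the neighbours GPI (1020 FPKM on average) and ENO1 (965 FPKM) and those of PFKP (312 FPKM) and PGK1 (308 FPKM). ALDOA, with 1886 FPKM, and TPI1, with 686 FPKM, were separate from their neighbours in that order. HK2, an inducible hexokinase that traps glucose in the cell as its phosphate, was at 1.46 and 1.60 FPKM, and so lay more than 2 orders of magnitude below the other enzymes. GAPDH was highest and HK2 lowest in all 3 groups. In si-PLANE.2, ALDOA and PKM overlapped at 2360 and 2350 FPKM on average, and ENO1 had come up next to LDHA, at 1944 against 1975 FPKM.

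**Figure D1:**
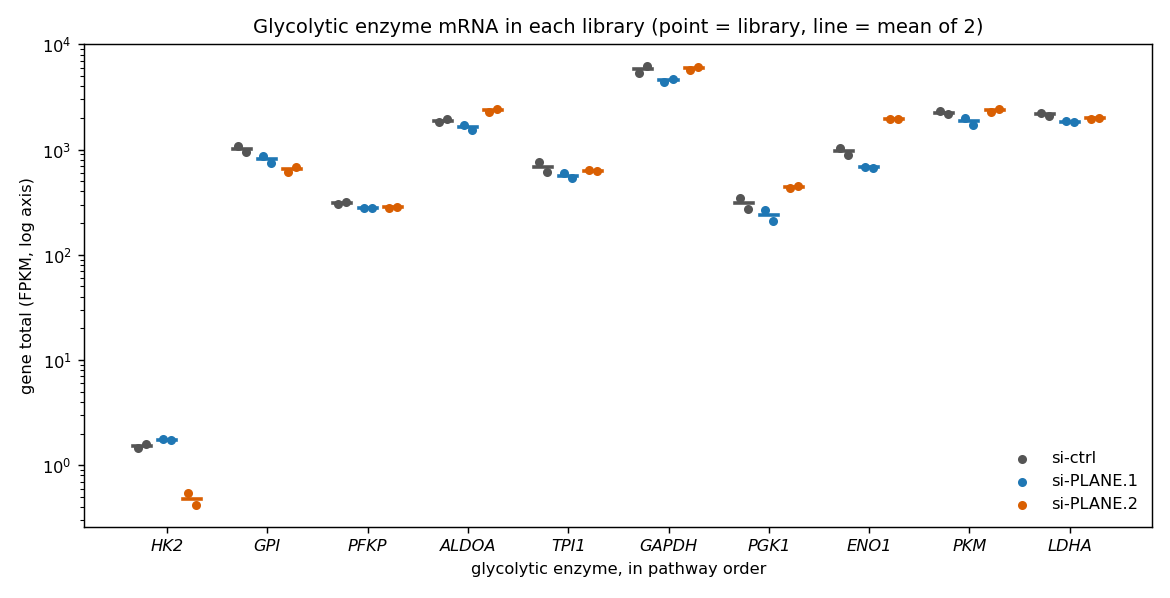
Gene totals of the 10 enzymes in FPKM on a log axis, in pathway order, with a point for each library and a line for the mean of the 2 libraries of si-ctrl (grey), si-PLANE.1 (blue) and si-PLANE.2 (orange). ENO1 and PGK1 lie lowest in si-PLANE.1 and highest in si-PLANE.2, and HK2 stays below 2 FPKM in every library.

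After transfection with si-PLANE.1, 9 of the 10 enzymes were lower in both libraries than in both si-ctrl libraries, by small amounts, and HK2 was higher in both. The same count was found on FPKM and on counts scaled by TMM, a factor that corrects for library composition. Over all 14535 genes tested, both si-PLANE.1 libraries were below both si-ctrl libraries for 14.2% of genes on FPKM and for 21.6% on scaled counts, and above them for 26.9% and 20.9%. The median log2 fold change of the 10 enzymes was -0.35, beside 0.00 over all genes tested. A similar median, -0.32, was found for the 9 listed A549 markers, of which 8 had fitted values below 0. None of the 10 passed edgeR's quasi-likelihood test at an adjusted p of 0.05, which called 0.0344% of all genes (5 of 14535, with 0.00688% higher and 0.0275% lower). An unadjusted p under 0.05 was found for 3 of the 10 (ENO1, PGK1 and TPI1), beside 10.4% of all genes, DESeq2 called 1 of the 10 (ENO1), beside 0.86% of all genes, and limma on log2(FPKM + 1) called 0. With the replicate numbers as a block, edgeR called 4 lower (ENO1, GAPDH, PGK1 and TPI1), beside 8.43% of all genes. Those numbers were not stated to mark a pairing.

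In the sugar-splitting phase the groups lay close together. GPI, which converts glucose phosphate to fructose phosphate, was at 1082 and 958 FPKM in si-ctrl against 864 and 752 in si-PLANE.1. PFKP, the platelet-type phosphofructokinase of the committed step, was at 307 and 317 FPKM in si-ctrl against 281 and 277 in si-PLANE.1. ALDOA, the aldolase that splits fructose bisphosphate, was at 1838 and 1933 FPKM against 1697 and 1549 FPKM. Neither the libraries of GPI nor those of PFKP or ALDOA overlapped between the groups, and their fitted log2 fold changes were -0.33 ± 0.18 (SE), -0.25 ± 0.14 and -0.28 ± 0.17. TPI1, which interconverts the triose phosphates, had 759 and 613 FPKM in si-ctrl against 593 and 538 in si-PLANE.1. For TPI1 the gap between the groups was narrow against the spread within si-ctrl, with a log2 fold change of -0.39 ± 0.14 and an edgeR adjusted p of 0.419.

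The 3 lowest fitted values were those of ENO1, PGK1 and GAPDH, all of the ATP-yielding phase. ENO1, the enolase that makes phosphoenolpyruvate, was at 1034 and 897 FPKM in si-ctrl against 688 and 670 in si-PLANE.1. The si-PLANE.1 libraries of ENO1 agreed closely and lay well below both si-ctrl libraries, with a log2 fold change of -0.60 ± 0.17 and an edgeR adjusted p of 0.359. DESeq2 gave the same fold change with an adjusted p of 0.00476. PGK1, which makes ATP from bisphosphoglycerate, had 345 and 272 FPKM in si-ctrl against 265 and 209 in si-PLANE.1. The lowest si-ctrl and the highest si-PLANE.1 library of PGK1 were nearly level, and its log2 fold change was -0.44 ± 0.16 (edgeR adjusted p = 0.423). GAPDH was at 5305 and 6234 FPKM in si-ctrl against 4373 and 4734 in si-PLANE.1, with a log2 fold change of -0.43 ± 0.23 (adjusted p = 0.559). PKM, which makes pyruvate and ATP, was at 2310 and 2181 FPKM against 1995 and 1706 FPKM. LDHA was at 2237 and 2083 FPKM against 1857 and 1813 FPKM. Neither PKM (-0.37 ± 0.21) nor LDHA (-0.26 ± 0.19) passed the test, though their libraries did not overlap. HK2 was the exception in direction, with 1.46 and 1.60 FPKM in si-ctrl, against 1.78 and 1.73 in si-PLANE.1, and a log2 fold change of 0.11 ± 0.20.

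After transfection with si-PLANE.2, the enzymes moved in both directions. ENO1, PGK1, ALDOA and, on counts but not on FPKM, TPI1 rose, and HK2, GPI and LDHA fell, at an edgeR adjusted p under 0.05, while PKM, GAPDH and PFKP did not pass. These 7 of 10 enzymes stand beside 64.1% of all 14168 genes tested (31.8% higher and 32.3% lower), which is close to the share among the enzymes. The median log2 fold change of the 10 was 0.23, beside -0.03 over all genes. On FPKM, HK2, GPI, PFKP and LDHA lay below and ALDOA, PGK1 and ENO1 above both si-ctrl libraries, where 49.7% of all genes lay below and 30.9% above, and the other 3 overlapped. On scaled counts 3 lay below and 6 above, where 41.9% and 40.9% of all genes did. With library totals in place of TMM the median of all genes moved to -0.20, and 2 enzymes were called higher and 3 lower. When either si-PLANE.2 library was left out, 3 calls remained (ENO1, PGK1 and HK2).

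ENO1 showed the largest rise. It was at 1034 and 897 FPKM in si-ctrl against 1937 and 1950 in si-PLANE.2, so that both si-PLANE.2 libraries were far above both si-ctrl libraries. The fold change was 2.32 on counts (log2 1.21 ± 0.11, edgeR adjusted p = 8.28e-05) and 2.01 on mean FPKM. PGK1 was at 345 and 272 FPKM in si-ctrl against 432 and 450 in si-PLANE.2, again without overlap. It rose by a log2 fold change of 0.77 ± 0.13 (edgeR adjusted p = 0.00134). ALDOA was at 1838 and 1933 FPKM in si-ctrl against 2275 and 2446 in si-PLANE.2, a rise of 0.30 ± 0.11 (adjusted p = 0.0409) that did not pass with all 6 libraries in one fit (adjusted p = 0.0708) or with library totals (adjusted p = 0.305).

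HK2 showed the largest fall. It was at 1.46 and 1.60 FPKM in si-ctrl against 0.54 and 0.42 in si-PLANE.2, from 110 and 126 against 60 and 43 expected counts. It was lower in both si-PLANE.2 libraries than in the other 4 libraries, with a log2 fold change of -1.51 ± 0.23 (edgeR adjusted p = 0.000959). GPI was at 1082 and 958 FPKM in si-ctrl against 611 and 685 in si-PLANE.2, and fell by 0.45 on the log2 scale (SE 0.11, edgeR adjusted p = 0.00794). LDHA was at 2237 and 2083 FPKM in si-ctrl against 1971 and 1979 in si-PLANE.2. LDHA fell by 0.43 (SE 0.11, edgeR adjusted p = 0.0106) on counts, but only from 2160 to 1975 FPKM on average, and limma on log2(FPKM + 1) gave -0.13 with an adjusted p of 0.313.

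For TPI1 the direction itself depended on the scale. TPI1 was at 759 and 613 FPKM in si-ctrl against 633 and 628 in si-PLANE.2, so that the groups overlapped on FPKM, with a limma log2 fold change of -0.11 (adjusted p = 0.479). On counts it was called higher by 0.44 ± 0.10 (edgeR adjusted p = 0.00617). With library totals in place of TMM the value was 0.26 and did not pass (adjusted p = 0.0535). FPKM divides by transcript length and counts do not, and no TMM factor was applied on FPKM. The median of all genes tested was -0.22 in limma on log2(FPKM + 1), beside -0.03 in edgeR. The parts of isoform length and of this general shift in the turn of TPI1 were not tested. GAPDH (5663 and 6141 FPKM in si-PLANE.2) and PKM (2292 and 2409 FPKM) overlapped with si-ctrl on FPKM, with log2 fold changes on counts of 0.22 ± 0.13 and 0.23 ± 0.11. PFKP was the steadiest enzyme, with 279 and 284 FPKM in si-PLANE.2, a ratio of 1.14 between its highest and lowest library, and a log2 fold change of 0.03 ± 0.10 that became -0.14 with library totals.

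**Figure D2:**
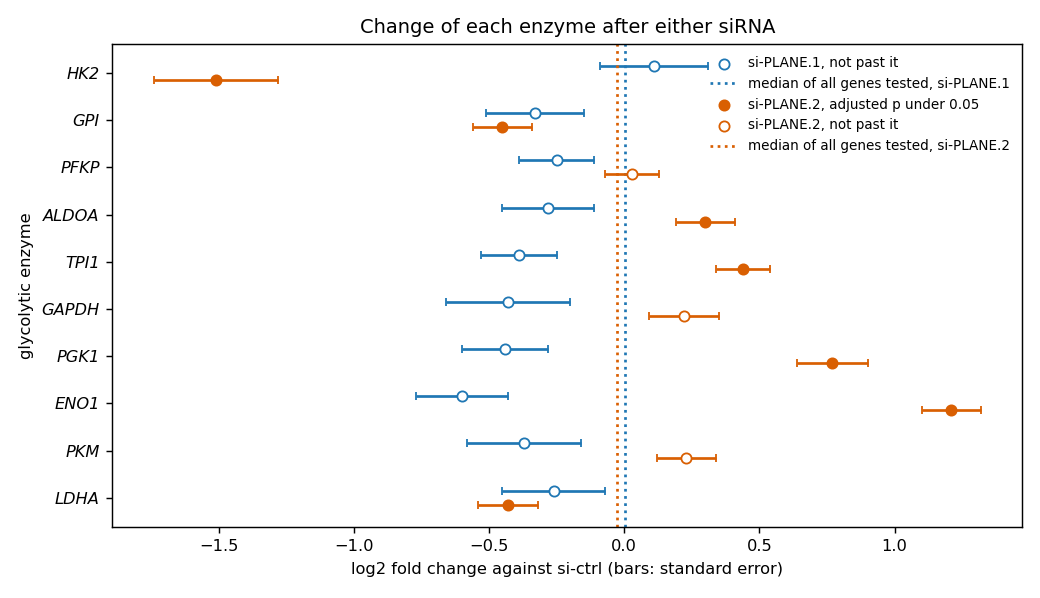
Log2 fold change of each enzyme against si-ctrl on scaled gene counts for si-PLANE.1 (blue) and si-PLANE.2 (orange), with the standard error of each as a bar; filled points passed an edgeR adjusted p of 0.05 and dotted lines mark the median of all genes tested. For si-PLANE.1 all points are open and 9 lie left of 0, while for si-PLANE.2 they spread from -1.51 (HK2) to 1.21 (ENO1).

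The comparisons above share the si-ctrl libraries, and the 2 siRNAs were also compared directly, in a fit of all 6 libraries. ENO1 was higher in si-PLANE.2 than in si-PLANE.1 by a log2 fold change of 1.82 ± 0.14 and PGK1 by 1.21 ± 0.14. TPI1 (0.83), GAPDH (0.66), PKM (0.61) and ALDOA (0.59) were also higher, and HK2 was lower by 1.61. These 7 of 10 passed an edgeR adjusted p of 0.05, beside 64.4% of all 14440 genes tested (31.1% higher and 33.4% lower). PFKP (0.29 ± 0.11, adjusted p = 0.0531), GPI (-0.12 ± 0.14) and LDHA (-0.17 ± 0.14) did not pass. Without replicate 4 of si-PLANE.2, 4 calls remained (HK2, TPI1, PGK1 and ENO1).

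Isoforms were taken as the transcripts with at least 5% of the FPKM of their gene over the 6 libraries, at most 4 for a gene, which gave 25 main isoforms. Their names and structures are those of GENCODE on GRCh37, the build of the files (hg19), and 23 of the 25 had a model there. The length of the model equalled the deposited length for 13 of the 25. GAPDH-202, GAPDH-204, LDHA-203, LDHA-204 and LDHA-206 were among these. GPI-201 had a deposited length of 2210 bases against 4125 in its model, and GAPDH-201 1875 against 1285. Coding lengths below are those of the models. In si-PLANE.1 0 of the 25 passed edgeR's quasi-likelihood test at an adjusted p of 0.05, beside 0% of 57625 transcripts. An unadjusted p under 0.05 was found for 9 of the 25, beside 4.43% of all transcripts. DESeq2 called 3 (GPI-211, GAPDH-201 and ENO1-201) while limma called 0. The share of all transcripts that DESeq2 called is not given here, so its count is not read as a result about the enzymes. In si-PLANE.2 16 of the 25 passed (9 higher and 7 lower), beside 25.6% of 56791 transcripts (12.9% higher and 12.7% lower). The 2 shares cannot be set against each other, since GAPDH-202 and LDHA-206 reached 5% only through the si-PLANE.2 libraries and TPI1-204 only through the other 4, so that a difference was built into their choice. Of the 22 main isoforms with at least 5% of their gene in both si-ctrl and si-PLANE.2, a limit added after the values were seen, 13 passed (7 higher and 6 lower). Of all 25, with library totals in place of TMM, 7 were higher and 9 lower. The transcript test leaned on both si-PLANE.2 libraries, since without replicate 3 none of the 25 passed and without replicate 4 only GAPDH-202 and LDHA-206 did.

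PKM was made almost wholly as M2 in all 6 libraries. The M1 exon lies at chr15:72495363-72495529 and the M2 exon at chr15:72494795-72494961, both within the coding part of PKM on the minus strand of GRCh37. Each is 167 bases long, and 105 positions (62.9%) are identical, so that reads from either exon can be told apart. The opening 30 bases of each exon are shown because these exons tell M1 from M2 transcripts, and capitals mark the 6 positions at which they differ.
M1 exon, chr15:72495500-72495529, minus strand: atAgcTcgtgaggcTgaggcAgccatGtTc
M2 exon, chr15:72494932-72494961, minus strand: atTgcCcgtgaggcAgaggcTgccatCtAc

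The 5 transcripts with the whole M1 exon and the 3 with the whole M2 exon held between 90.4% and 94.3% of PKM FPKM in each library. The remaining transcripts were left unassigned. Among them was PKM-222, which ends at chr15:72494874, inside the M2 exon. M1 made up 0.538% and 0.492% of M1 plus M2 FPKM in si-ctrl, 0.515% and 0.681% in si-PLANE.1, and 0.572% and 0.590% in si-PLANE.2. These shares sum the estimated levels of whole transcripts, not reads counted on either exon, and the error of that estimate was not tested. In absolute terms M1 was between 9.59 and 12.8 FPKM and M2 between 1553 and 2167 FPKM. The M1 share was thus low and close in all 3 groups, with means of 0.515% ± 0.0325 (SD, n = 2), 0.598% ± 0.117 and 0.581% ± 0.0127. The higher M1 share of one si-PLANE.1 library came with the lowest M2 level, 1553 FPKM, and not with the highest M1 level. PKM-202, the main M2 transcript, held 93.7% and 91.3% of PKM in si-ctrl, 92.5% and 90.9% in si-PLANE.1, and 90.0% and 89.8% in si-PLANE.2. The nonsense-mediated decay transcript PKM-222, looked at after its values had been seen, was at 29.9 and 46.5 FPKM in si-ctrl, against 26.9 and 31.6 in si-PLANE.1 and 147 and 157 in si-PLANE.2. It stayed under 7% of PKM FPKM in every library.

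The 4 listed splicing regulators of PKM, whose products are known to steer the choice between the M1 and M2 exons, were all called higher in si-PLANE.2 on counts, in a comparison that called 64.1% of all genes. HNRNPA1 had a log2 fold change of 0.98 ± 0.11. HNRNPA2B1 was at 436 and 378 FPKM in si-ctrl, against 352 and 350 in si-PLANE.1 and 638 and 595 in si-PLANE.2, with a log2 fold change of 0.61 ± 0.11. For PTBP1 (0.40 ± 0.09) and SRSF3 (0.43 ± 0.13) the sign turned on FPKM, to -0.27 and -0.17 in limma, and with the most abundant transcript in place of the gene both were called lower, by -0.95 (adjusted p = 0.00713) and -0.52 (adjusted p = 0.0312). None of the 4 passed for si-PLANE.1, in which their median was -0.32.

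In GAPDH the isoform make-up differed sharply in si-PLANE.2. For this and the isoform differences below, the siRNA and the preparation or processing of the si-PLANE.2 libraries cannot be told apart. GAPDH-204, the leading transcript, was at 4200 and 5016 FPKM in si-ctrl, against 3476 and 3825 in si-PLANE.1 and 2728 and 3040 in si-PLANE.2. GAPDH-202 was at 9.05 and 5.28 FPKM in si-ctrl, against 10.7 and 2.75 in si-PLANE.1 and 1871 and 1932 in si-PLANE.2. It thus went from at most 0.245% of the gene in the other libraries to 33.0% and 31.5% in si-PLANE.2, with a fitted log2 fold change of 8.36 ± 0.34, given as a description because the si-PLANE.2 libraries alone brought it over the 5% limit. GAPDH-202 carries a GAPDH-204 exon that begins 27 bases earlier, at chr12:6645957-6645983. Its annotated coding start lies at chr12:6645973 within those 27 bases, and its coding length is 780 bases against 1005 bases for GAPDH-204. GAPDH-201, of the same coding length as GAPDH-204, was at 1050 and 1148 FPKM in si-ctrl against 975 and 1062 in si-PLANE.2. The gene total of GAPDH was therefore close between si-PLANE.2 and si-ctrl (5902 against 5769 FPKM on average) while its main isoform had a lower share, 48.2% and 49.5% against 79.2% and 80.5%. When the most abundant transcript stood in for the gene, the fitted log2 fold change turned from 0.22 to -0.47 (adjusted p = 0.0529).

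The isoform make-up of LDHA also differed in si-PLANE.2. LDHA-203 was at 1203 and 972 FPKM in si-ctrl, against 1048 and 949 in si-PLANE.1 and 273 and 259 in si-PLANE.2, a log2 fold change of -1.74 ± 0.14 for si-PLANE.2 (edgeR adjusted p = 0.00786). LDHA-206 was at 3.17 and 1.47 FPKM in si-ctrl, against 3.58 and 0.47 in si-PLANE.1 and 623 and 588 in si-PLANE.2. Its fitted log2 fold change, likewise a description, was 8.33 ± 0.43, and 8.96 without replicate 1 of si-ctrl. All 4 libraries of si-ctrl and si-PLANE.1 had LDHA-206 at under 0.2% of the gene, and the si-PLANE.2 libraries at 31.6% and 29.7%. LDHA-206 leaves out a coding exon of LDHA-203 at chr11:18422384-18422557 on the plus strand of GRCh37. That exon is 174 bases long, which is 58 codons, so its loss keeps the reading frame, and the transcripts also differ in their outermost exons. The junctions that tell the transcripts apart are given with 15 bases on each side and the bases after the junction in capitals.
LDHA-203, exon included, plus strand: ttgtctctggcaaagACTATAATGTAACTG
LDHA-206, exon left out, plus strand: ttgtctctggcaaagTGGATATCTTGACCT

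LDHA-204, which lacks a different internal exon of 124 bases (chr11:18426996-18427119) and has a coding length of 822 bases, was at 444 and 475 FPKM in si-ctrl against 181 and 172 in si-PLANE.2. Its log2 fold change of -1.09 ± 0.10 passed (edgeR adjusted p = 0.0098). Of the transcripts added after their values had been seen, the retained-intron form LDHA-207 was at 0 and 0.76 FPKM in si-ctrl against 310 and 338 in si-PLANE.2. The decay form LDHA-218 had 0 counts in all 4 libraries of si-ctrl and si-PLANE.1 and was at 189 and 190 FPKM in si-PLANE.2, which is at least 307-fold higher than a floor of 3 counts per si-ctrl library. The total of LDHA, 1971 and 1979 FPKM in si-PLANE.2, thus sums a different set of transcripts than in si-ctrl, with LDHA-203 at 13.9% and 13.1% of it against 53.8% and 46.6%.

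The leading isoforms of ALDOA and GPI in si-PLANE.2 differed from those in si-ctrl. ALDOA-216 was at 934 and 1007 FPKM in si-ctrl, against 913 and 836 in si-PLANE.1 and 281 and 345 in si-PLANE.2, and fell by 1.34 on the log2 scale (SE 0.13, edgeR adjusted p = 0.0104). ALDOA-206, which encodes a protein of the same coding length (1092 bases), rose from 190 and 125 FPKM in si-ctrl to 436 and 468 FPKM in si-PLANE.2. ALDOA-211, without a defined coding sequence, rose from 194 and 156 to 506 and 574 FPKM. Both passed, with log2 fold changes of 1.81 ± 0.22 and 1.98 ± 0.15. ALDOA-207, added after its values had been seen, had 0 counts in the other 4 libraries and 288 and 283 FPKM in si-PLANE.2, at least 468-fold above the floor of 3 counts. With its most abundant transcript in place of the total, ALDOA turned from 0.30 to -1.42.

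GPI-208 fell from 750 and 641 FPKM in si-ctrl to 149 and 181 FPKM in si-PLANE.2, and stood at 577 and 508 FPKM in si-PLANE.1. GPI-201 rose from 96.2 and 116 FPKM in si-ctrl to 359 and 358 FPKM in si-PLANE.2, and stood at 136 and 104 FPKM in si-PLANE.1. The leading isoform of GPI was therefore GPI-208 in si-ctrl (69.3% and 66.9%) and GPI-201 in si-PLANE.2 (58.7% and 52.2%), with log2 fold changes of -1.79 ± 0.14 and 2.04 ± 0.14. In si-PLANE.1 GPI-211 had the lowest fitted value of the 25 main isoforms, with 116 and 81.0 FPKM in si-ctrl against 37.3 and 34.8 in si-PLANE.1, a log2 fold change of -1.54 ± 0.25 (edgeR adjusted p = 0.918).

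In TPI1 a short transcript was nearly missing from si-PLANE.2. TPI1-204, a retained-intron transcript of 427 bases, was at 239 and 127 FPKM in si-ctrl, against 164 and 147 in si-PLANE.1 and 1.78 and 2.75 in si-PLANE.2. Its fitted log2 fold change was -5.90 ± 0.52, a description for the reason given above, and the coding transcript TPI1-202 then made up 98.8% and 98.4% of the gene instead of 67.5% and 77.8%. TPI1-202, of 1231 bases in the deposited tables, rose from 512 and 477 to 626 and 618 FPKM, a log2 fold change of 0.63 ± 0.09. Of the PGK1 isoforms the largest rise was that of ENST00000537456, which has no model in the annotation used here and went from 39.8 and 22.9 to 150 and 168 FPKM, with a log2 fold change of 2.64 ± 0.30. ENO1 and PFKP kept their leading isoforms. ENO1-201 held between 95.6% and 98.8% of ENO1 in the 6 libraries and PFKP-203 between 90.5% and 93.2% of PFKP.

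**Figure D3:**
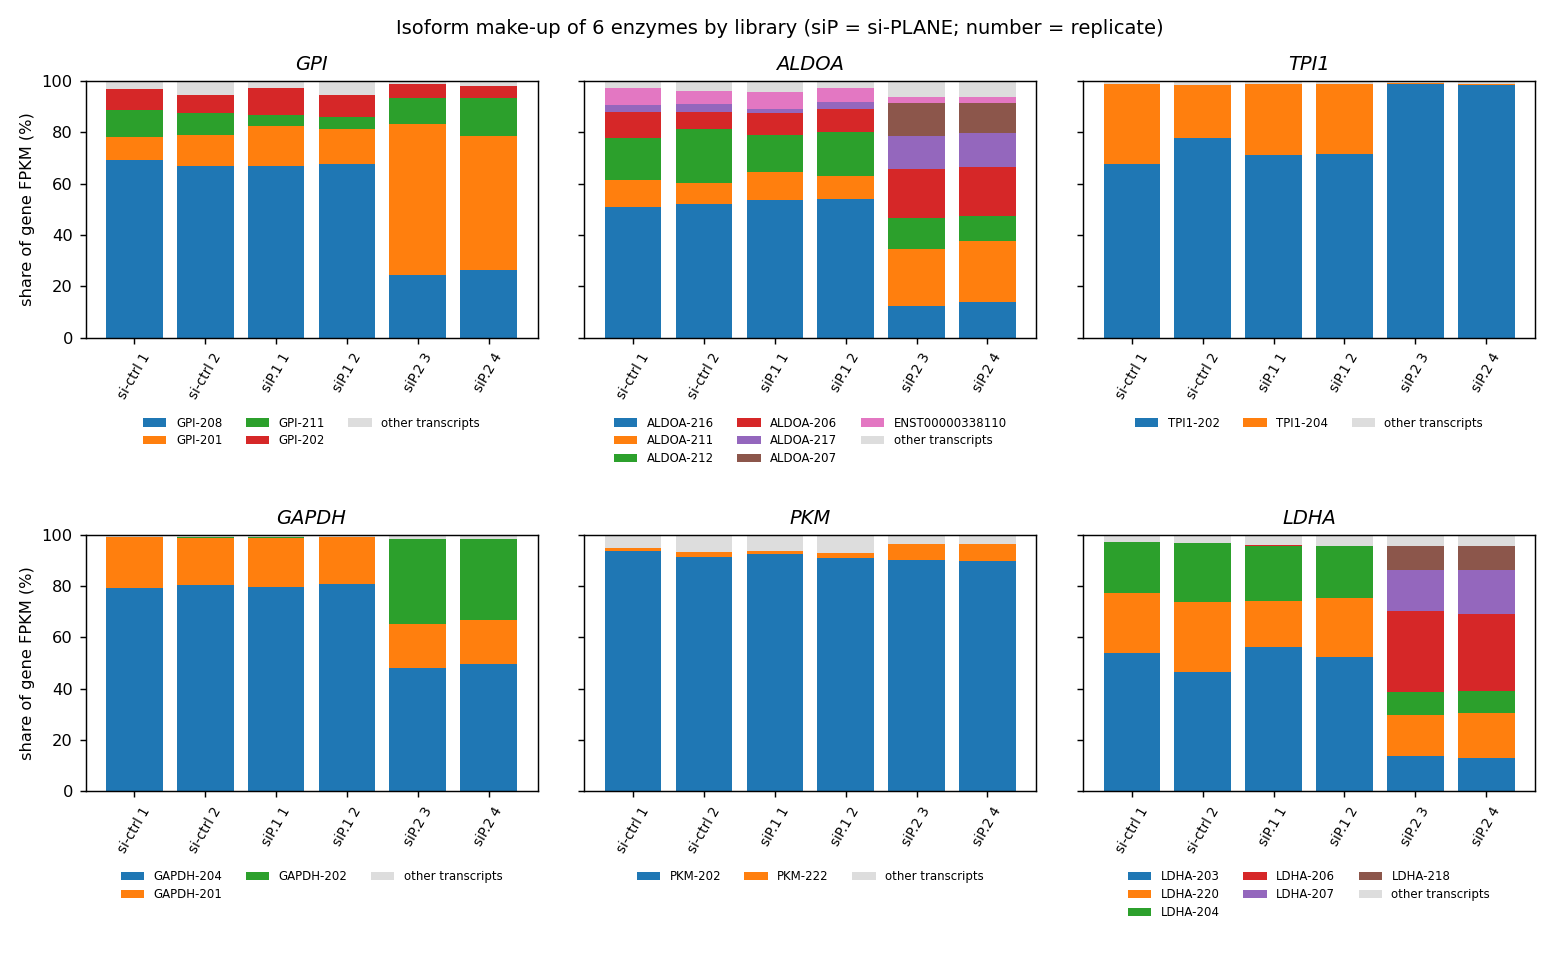
Share of gene FPKM (%) held by the main isoforms, and by transcripts added after their values were seen, of 6 enzymes, as stacked bars for the 6 libraries, with all other transcripts in light grey. The si-ctrl and si-PLANE.1 bars resemble each other within each gene, whereas in si-PLANE.2 GAPDH-202, LDHA-206 and GPI-201 take 31.5% to 33.0%, 29.7% to 31.6% and 52.2% to 58.7% of their genes, and PKM stays almost wholly PKM-202.

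Across the 140 transcripts of the enzymes, retained-intron transcripts made up 5.15% and 5.89% of FPKM in si-ctrl, 5.24% and 5.70% in si-PLANE.1 and 4.41% and 4.28% in si-PLANE.2. Over all genes that class went from between 8.09% and 8.41% in si-ctrl and si-PLANE.1 to 4.59% and 4.75% in si-PLANE.2. Transcripts annotated for nonsense-mediated decay made up between 0.229% and 0.360% of the enzymes' FPKM in si-ctrl and si-PLANE.1 and 2.42% and 2.35% in si-PLANE.2. Expected counts assign reads that fit several transcripts by an estimate, so the split between isoforms is less certain than the gene totals. Counts in annotated pseudogenes of the enzymes reached at most 0.332% of the parent gene, for TPI1 in a si-ctrl library.

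Other genes of glucose metabolism were compared as lists. In si-PLANE.1 none of 64 tested genes of these lists, the splicing regulators and RNAs without a poly(A) tail included, passed in the edgeR fit against si-ctrl, which has no replicate block, or in limma, and DESeq2 called 3 lower, the glucose phosphatase subunit G6PC3 and the histone genes HIST1H1D and HIST1H1E. LDHB, the heart-type lactate dehydrogenase subunit, was at 461 and 456 FPKM in si-ctrl against 293 and 366 in si-PLANE.1, and its log2 fold change was -0.56 ± 0.17. G6PC3 was at 29.3 and 33.8 FPKM against 22.4 and 19.7 FPKM, with -0.76 ± 0.15. Of 11 other glycolytic enzymes tested, 9 had fitted values below 0 in si-PLANE.1, with a median of -0.08 beside the -0.35 of the 10 enzymes above.

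In si-PLANE.2, in which 64.1% of all genes passed (31.8% higher and 32.3% lower), the lists below had calls at shares that are not read as results about the lists. The limma counts on FPKM are not read so either, and the share of all genes that limma called is not given here. All genes tested had a median of -0.22 in limma on log2(FPKM + 1). On FPKM 49.7% of them lay below both si-ctrl libraries and 30.9% above. Of the 11 other glycolytic enzymes 6 rose and 2 fell, and 4 rose and 2 fell in limma on FPKM. LDHB rose to 1029 and 966 FPKM (log2 fold change 1.50 ± 0.10), PGAM1, the phosphoglycerate mutase between PGK1 and ENO1, rose from 188 and 140 to 404 and 399 FPKM (1.49 ± 0.14), and HKDC1, a hexokinase-like enzyme, rose from 29.2 and 27.7 to 49.3 and 49.3 FPKM (1.51 ± 0.09). PFKM, the muscle phosphofructokinase, and ADPGK were called higher on counts (0.54 and 0.34), and had limma values of -0.27 and -0.03 on FPKM. Of the fallen enzymes, the housekeeping hexokinase HK1 fell from 61.6 and 53.7 to 25.4 and 26.2 FPKM and the brain aldolase ALDOC from 28.6 and 20.7 to 10.8 and 13.1 FPKM. HK1 and HK2 were thus lower and HKDC1 higher in si-PLANE.2, and LDHA was slightly lower and LDHB higher.

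**Figure D4:**
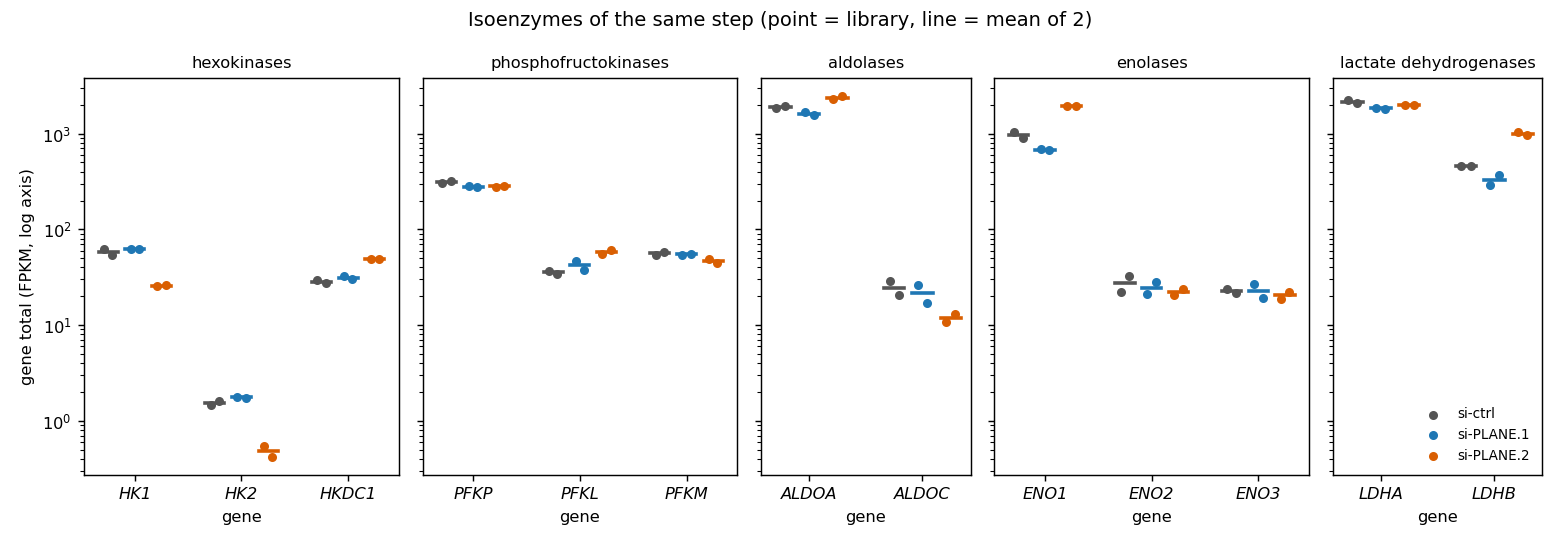
Gene totals in FPKM on a log axis for isoenzymes that catalyse the same step, with a point for each library and a line for the mean of the 2 libraries of si-ctrl (grey), si-PLANE.1 (blue) and si-PLANE.2 (orange). All listed hexokinases, phosphofructokinases, aldolases, enolases and lactate dehydrogenases with more than 1 FPKM in any library are shown, and ADPGK is left out. In si-PLANE.2 HK1 and HK2 are lower and HKDC1 and LDHB higher than in the other 4 libraries, and the lowest ENO1 and LDHB points are those of si-PLANE.1.

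Transport and regulation were mixed in si-PLANE.2. Of 9 transport genes, 5 rose and 3 fell, beside the 64.1% of all genes called, and in limma on FPKM 4 rose and 2 fell. The glucose transporter SLC2A1 rose from 53.5 and 65.7 to 75.2 and 96.5 FPKM (log2 fold change 0.51 ± 0.13), SLC2A6 rose from 3.19 and 2.25 to 8.72 and 12.2 FPKM (1.96 ± 0.19), and BSG, the chaperone of the lactate carriers, was called higher by 0.27 ± 0.10. SLC2A3 (-0.95 ± 0.28), SLC2A12 (-1.04 ± 0.26) and the lactate carrier SLC16A7 (-2.03 ± 0.42) fell. SLC2A12 did not exceed 1.29 FPKM and SLC16A7 did not exceed 1.87 FPKM in any library. The lactate carrier SLC16A3 rose from 18.9 and 21.2 to 46.0 and 48.1 FPKM (1.00 ± 0.12), and SLC16A1 did not pass (-0.06 ± 0.11). Of 10 regulators of flux tested, 2 rose and 6 fell, with a median of -0.72, beside 32.3% of all genes called lower. In limma on FPKM, where the median of all genes was -0.22, 0 rose and 5 fell. All 4 pyruvate dehydrogenase kinases, which restrain the entry of pyruvate into the mitochondria, fell on counts, from -0.70 ± 0.16 for PDK2 and -1.27 ± 0.11 for PDK4 to -1.47 ± 0.17 for PDK3 and -1.55 ± 0.21 for PDK1. On FPKM PDK1 was at 13.0 and 12.9 in si-ctrl and at 4.15 and 9.45 in si-PLANE.2, libraries that lay far apart, and limma called only PDK2, PDK3 and PDK4 of these kinases. The other regulators that fell were the pyruvate dehydrogenase phosphatases PDP1 (-0.62 ± 0.19) and PDP2 (-0.74 ± 0.14), which act against these kinases. For PDP1 and PDP2 limma on FPKM gave lower calls too. PFKFB3, which makes the allosteric activator of phosphofructokinase, was called higher on counts (0.65 ± 0.13), with 95.4 and 122 FPKM in si-ctrl against 99.3 and 117 in si-PLANE.2.

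Of 8 genes of pyruvate entry, 1 rose (the carrier subunit MPC2, 0.83 ± 0.11) and 2 fell (the pyruvate dehydrogenase components DLAT, -0.82 ± 0.18, and PDHX, -0.68 ± 0.12), beside the 64.1% of all genes called, while PDHA1, PDHB and DLD did not pass. In limma on FPKM DLAT, DLD and PDHX were called lower and none higher. Of 3 gluconeogenic genes tested, PCK2 (0.45 ± 0.11) and G6PC3 (1.20 ± 0.11) rose, and PCK1, at 0.13 to 2.12 FPKM, did not pass in edgeR (-1.13 ± 0.56) and was called lower in limma on FPKM, which called G6PC3 but not PCK2. Of 14 listed genes of the hypoxia response outside glycolysis, HIF1A itself included, 2 rose and 8 fell in si-PLANE.2, with a median of -0.55. They stand beside 64.1% of all genes called (31.8% higher and 32.3% lower). In limma on FPKM, where the median of all genes was -0.22, 1 of the 14 rose and 9 fell. HIF1A, the oxygen-regulated subunit of HIF-1, went from 234 and 203 to 119 and 131 FPKM (-0.60 ± 0.11), NDRG1 from 476 and 701 to 107 and 127 FPKM (-1.61 ± 0.20), BNIP3L by -1.25 ± 0.10 and EGLN3 by -1.19 ± 0.20. DDIT4 rose by 0.89 ± 0.23, and P4HA2 was called higher on counts (0.43) with a limma value of -0.08 on FPKM. With the most abundant transcript in place of the gene HIF1A turned to 1.27, MPC2 to -0.02 and PFKFB3 to -2.20. Of 2 listed glucose-responsive MondoA targets, ARRDC4 was tested, at 0.63 to 3.10 FPKM, and did not pass.

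The promoters of the enzymes were searched for the core of the hypoxia response element and for the E-box, in RefSeq windows (GRCh38.p14) around each gene's start, on both strands. ACGTG was found for 8 of the 10 enzymes and in 21.4% of all 35116 windows, GCGTG for 7 of 10 and in 36.5% of windows, and the E-box CACGTG, which contains ACGTG, for 4 of 10 and in 7.26% of windows. The windows of ENO1 and PKM held GCGTG without ACGTG, and those of ALDOA, GAPDH, HK2 and LDHA held CACGTG. These matches are a description of sequence, and the enzymes that rose and fell in si-PLANE.2 both had them.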

How the data were processed

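RNA-seq of 6 A549 libraries (2 each of si-ctrl, si-PLANE.1 and si-PLANE.2) was used, grouped by the sample labels. Per library, the authors deposited transcript-level expected counts, not normalized, and FPKM values, normalized by the authors for transcript length and depth. The submitters' processing notes name Trimmomatic 0.30, HISAT2 2.0.1, HTSeq 0.6.1, DESeq and hg19; the tool behind the expected counts is not given in the sources used here. Deposited columns of the authors' own comparisons (fold changes and p-values) were not used. Transcripts without a gene identifier (16723, with 3.03% to 3.62% of counts) stayed out of gene sums.

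Expected counts were rounded, summed per gene and tested with edgeR 4.0.16 (TMM, quasi-likelihood test, two-sided) in R 4.3.3, each siRNA against si-ctrl in its own fit and the siRNAs against each other in a fit of 6 libraries. Features averaging 0.5 FPKM or more over the libraries of a fit entered, with Benjamini-Hochberg adjustment over all of them. The count test corrects for depth and composition, not for a change of isoform length. Alternatives were RLE factors, library totals, no minimum, DESeq2 1.42.0, limma 3.58.1 on log2(FPKM + 1) and log2(FPKM + 0.1), 6 libraries in one fit, a replicate block, each library left out, and the most abundant transcript. Scripts were tested on simulated data. The enzymes were given by name; members and lists were chosen with earlier results of these data known. Of each list, the text names up to 3 genes with the highest level and up to 3 with the largest called change. HK1, ADPGK, ALDOC, P4HA2, PDP1, PDP2, SLC16A1, SLC16A3, some cell type markers and transcripts marked as added were named after their values were seen. Of 14 listed RNAs without a poly(A) tail 4 were in the tables, and TXNIP and PECAM1 were not analysed here. Precision is limited by 2 libraries per group of 10572151 to 20778431 counts.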

Additional observations from a re-analysis of the deposited data

Results flagged for a closer look

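For 7 enzymes the effects of the 2 siRNAs differed by edgeR's quasi-likelihood test of the difference itself (si-PLANE.2 minus si-PLANE.1, 6 libraries, adjusted p under 0.05), as they did for 64.4% of all genes tested. The difference on the log2 scale was 1.82 for ENO1, 1.21 for PGK1, 0.83 for TPI1, 0.66 for GAPDH, 0.61 for PKM, 0.59 for ALDOA and -1.61 for HK2. On FPKM the 2 si-PLANE.2 libraries were above the 2 si-PLANE.1 libraries for the 6 positive values and below them for HK2. The si-PLANE.2 libraries also stood apart in RNAs that lack a poly(A) tail, and the siRNA and the library preparation cannot be told apart here.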

How the results depend on the processing

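For si-PLANE.1, 124 of 129 values of the enzymes under the alternatives kept their direction and their side of an adjusted p of 0.05, 5 newly passed and 0 turned. The count of enzymes called was 0, 1 with DESeq2 (ENO1), which gave HK2 no adjusted p, and 0 to 0 with a library left out. The replicate numbers that si-ctrl and si-PLANE.1 share were not stated to mark a pairing, and the replicate differences of the groups had a correlation of 0.335 across 14535 genes. With the replicate block 4 enzymes were called lower (ENO1, GAPDH, PGK1 and TPI1), beside 8.43% of all genes, and of 64 tested genes in the other lists 1 was called higher and 12 lower. No paired analysis was possible for si-PLANE.2 because its libraries carry other numbers. DESeq2 called 3 main isoforms for si-PLANE.1, a count given without the share of all transcripts that it called.

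For si-PLANE.2, the 7 calls ranged from 3 to 9 with a library left out, and for the difference between the siRNAs the 7 ranged from 4 to 7; for the 16 main isoforms the range was 0 to 16. Over all enzymes, 95 of 120 values kept direction and side, 13 lost the call, 4 gained it and 8 turned. PFKP turned to -0.14 with library totals, to -0.15 with limma at either pseudocount, and ranged from -0.01 to 0.08 with a library left out. TPI1 turned to -0.11 with limma at either pseudocount. With the most abundant transcript ALDOA turned to -1.42 and GAPDH to -0.47. With library totals GPI-211 turned to -0.21, PFKP-203 to -0.13 and GAPDH-201 to -0.10, and with limma at either pseudocount to -0.31, -0.13 and -0.11. With a library left out, GPI-211 ranged from -0.31 to 0.36, PGK1-201 from -0.18 to 0.04 and ALDOA-212 from -0.37 to 0.10. For si-PLANE.1, isoforms that turned with a library left out ranged from -0.09 to 0.24 (GPI-201), -0.33 to 0.06 (GPI-202), -1.46 to 0.47 (GAPDH-202), -2.41 to 0.51 (LDHA-206), -0.50 to 0.07 (ALDOA-206), -0.68 to 0.14 (ENST00000537456) and -0.70 to 0.19 (TPI1-204). None of these isoforms was called before it turned. The cause of these turns was not tested.

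The share of the 10 enzymes was 2.12% of counts and 2.10% of FPKM in si-ctrl, and 2.21% and 2.02% in si-PLANE.2. The M1 share of PKM, 0.565% over the 6 libraries, was 0.590% on counts and ranged from 0.541% to 0.579% with a library left out. Depth limits HK2, with 43 to 126 counts.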
